A study of Mus musculus with 8 samples.

Results

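miR-142-3p, miR-142-5p and miR-223-3p, 3 miRNAs known from blood cells, were followed across an RT-qPCR profile of injured mouse muscle. They were chosen by name, with the species prefix of the assay removed and every assay of a name counted. This gave 4 of the 752 miRNA assays of the panel, since miR-223-3p had an assay named for human (hsa-miR-223-3p) and another named for rat (rno-miR-223-3p). The 4 assays stand for 3 of the 688 miRNAs measured.

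The profile held 8 RNA pools of gastrocnemius muscle, 1 for each combination of injection, surgery and day, and by the labels each pool was made of 3 samples. The mice were female C57Bl/6 animals of 6 to 8 weeks. All of them had surgery, either a transection of the thoracic spinal cord (SCI) or the SHAM operation, so no pool came from an unoperated mouse. The muscle received cardiotoxin (CDTX), a snake venom toxin that destroys myofibres, or phosphate-buffered saline (PBS), and was taken at D2 or D4, 2 or 4 days later. The groups, each with 1 pool at D2 and 1 at D4, were thus PBS + SHAM and CDTX + SHAM, and with cord injury PBS + SCI and CDTX + SCI. The study used this model to ask which miRNAs change when muscle damage and spinal cord injury occur together, the setting in which bone forms inside muscle. Its methods place CDTX in the left and PBS in the right hindlimb, so a PBS muscle can come from a mouse whose other leg was injured, and the CDTX and PBS pools of a surgery and day may hold the same mice. A pool averages its animals, so the spread between mice was not measured.

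A mature miRNA guides the Argonaute complex to messenger RNAs that pair with its seed, bases 2 to 8 from its 5′ end, and represses them. miR-142 is made in nearly all hematopoietic cells and is very low in most other cell types, and both arms of its hairpin are loaded. miR-223 is a myeloid miRNA, high in neutrophils and also present in monocytes and platelets, where it restrains the activation of granulocytes. After a toxin injury, muscle is entered first by neutrophils and then by monocytes that become macrophages.

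The sequences below are shown because each member is defined by its seed. They are the mature mouse sequences of RefSeq (GRCm38.p6, in which miR-142 is named miR-142a), identical to those listed for the panel, with the seed in capitals.
miR-142-3p: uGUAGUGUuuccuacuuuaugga
miR-142-5p: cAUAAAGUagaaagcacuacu
miR-223-3p: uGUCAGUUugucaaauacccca
The 3 seeds differ from each other, and none of them was shared by any other of the 750 sequences listed for the panel apart from the rat assay of miR-223-3p. That assay was designed on a sequence of 21 bases, which has the same seed and lacks only the last base, A, of the 22 bases in mouse.
rno-miR-223-3p: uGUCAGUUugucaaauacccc
miR-142-3p (chr11:87756903-87756925, plus strand) and miR-142-5p (chr11:87756867-87756887, plus strand) are cut from the same hairpin, shown here with both arms in capitals.
Mir142: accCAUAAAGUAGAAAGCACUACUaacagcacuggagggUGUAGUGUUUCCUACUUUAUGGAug
Mir142 lies on chromosome 11, where the annotation places a second miRNA gene, Mir142b, over it. miR-223-3p (chrX:96242884-96242905, plus strand) comes from Mir223 on chromosome X, inside the long non-coding RNA gene F630028O10Rik.

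The measured quantity was the Cp, the cycle at which an assay's fluorescence curve bends most sharply. It is a log2 scale that runs downward, so that each cycle less means about 2 times more template. Across the pools, 152 to 178 assays had a Cp of at most 32, the threshold the study used for expression, and 388 to 436 stood at 36, the end of the recorded range. The mean Cp of the 3 reference miRNAs (miR-125b-5p, miR-24-3p and miR-23b-3p) lay between 24.68 and 25.61. No pool had a replicate.

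miR-223-3p was detected in every pool and came up about 3 cycles earlier after CDTX. With the human-named assay its Cp in PBS muscle was 28.10 in SHAM D2, 28.53 in SCI D2, 29.16 in SHAM D4 and 28.60 in SCI D4. In CDTX muscle the same assay gave 24.92 in SHAM D2, 25.29 in SCI D2, 26.15 in SHAM D4 and 25.57 in SCI D4. The latest CDTX pool thus came up before the earliest PBS pool, and SHAM D4 was the latest pool within each injection. The rat-named assay gave 29.96, 30.43, 30.66 and 30.43 in the PBS pools and 26.63, 26.93, 27.97 and 27.01 in the CDTX pools, in the same order of conditions. It ordered the pools almost as the human-named assay did and again separated the injections, with SHAM D4 the latest pool of each. By rank of Cp, which also depends on the efficiency of each assay, hsa-miR-223-3p was 6th of the 155 assays at or below 32 in the CDTX + SHAM D2 pool and 56th of 170 in PBS + SHAM D2.

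miR-142-5p behaved alike. Its Cp in PBS muscle was 27.90 in SHAM D2, 29.05 in SCI D2, 29.22 in SHAM D4 and 28.94 in SCI D4. In CDTX muscle it was 25.20, 25.95, 25.79 and 25.40 in the same order of conditions. The groups did not overlap, and the PBS + SHAM pool at D2 was the earliest of the PBS pools. How many of all assays separated the injections in this way was not counted, here or for the other members.

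miR-142-3p, the other arm, came up later in every pool. Its Cp in PBS muscle was 31.56 in SHAM D2, 32.65 in SCI D2, 32.83 in SHAM D4 and 32.38 in SCI D4, so that 3 of the 4 PBS pools were above the threshold of 32. After CDTX it was 28.53, 29.18, 28.82 and 28.83, below the threshold in all 4 pools. Without CDTX this arm was therefore near the limit set for expression, and no ratio to those 3 pools was counted. Cp values were not set against each other as amounts, since each assay has its own efficiency.

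**Figure D1:**
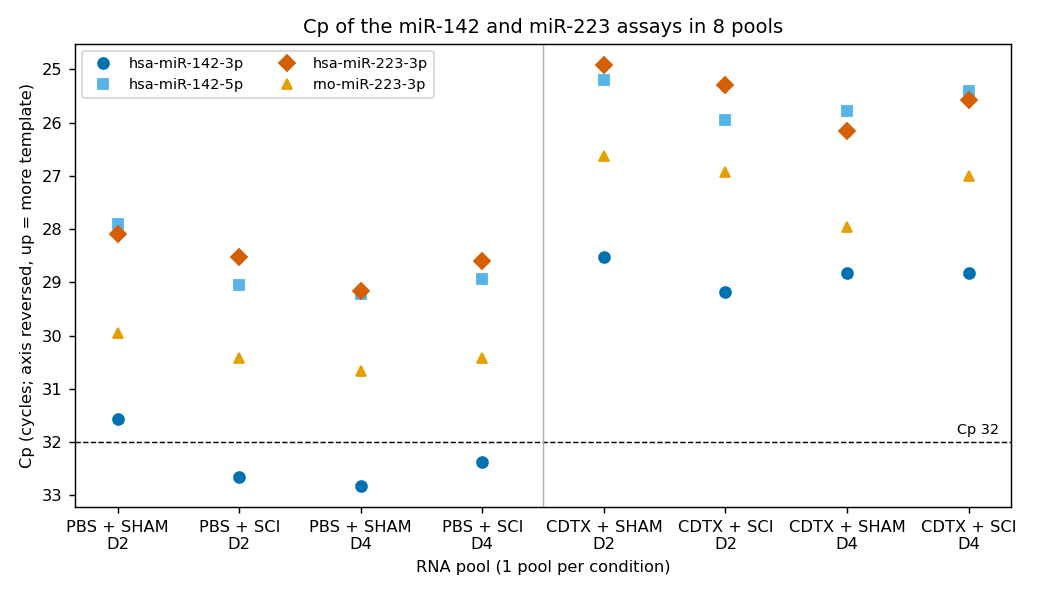
Cp of the 4 assays in each of the 8 RNA pools, on a reversed axis in cycles so that points further up hold more template; each point is 1 pool and the dashed line is the Cp threshold of 32. The CDTX pools on the right come up 2.69 to 4.01 cycles before the PBS pools of the same surgery and day, and miR-142-3p crosses the threshold in 3 PBS pools.

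Levels were next expressed relative to the references, as the mean Cp of the 3 reference miRNAs minus the Cp of the assay (log2 level). For miR-223-3p (hsa) the log2 level was −3.42, −3.67, −3.81 and −3.43 in the PBS pools (SHAM D2, SCI D2, SHAM D4, SCI D4) and 0.62, 0.22, −0.54 and −0.35 in the CDTX pools. In other words the lowest CDTX pool stood 2.88 above the highest PBS pool. For miR-142-5p the log2 level was −3.22, −4.19, −3.87 and −3.77 in the PBS pools and 0.34, −0.44, −0.18 and −0.18 in the CDTX pools, a gap of 2.78. For miR-142-3p it was −6.88, −7.79, −7.48 and −7.21 against −2.99, −3.67, −3.21 and −3.61, and here the gap was 3.21. The rat-named assay of miR-223-3p gave −5.28, −5.57, −5.31 and −5.26 against −1.09, −1.42, −2.36 and −1.79, with a gap of 2.90. Within an injection the steps between neighbouring pools were far smaller than these gaps, and they were not tested since each pool stands alone. The share of all assays with such a gap was not counted.

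The first comparison asked what CDTX did to the members, over both surgeries and both days. All of them rose, and by much the same amount. miR-142-3p was higher by 3.97 ± 0.21 on the log2 scale (SE, 4 against 4 pools), which is 15.7-fold and includes the 3 PBS pools with a Cp over 32, and miR-142-5p by 3.65 ± 0.22, or 12.5-fold. miR-223-3p was higher by 3.57 ± 0.23 (hsa) and 3.69 ± 0.26 (rno), which are 11.9-fold and 12.9-fold. In the limma fit over 163 assays with a mean Cp of at most 32, the adjusted p was 1.36e-05 for miR-142-3p, 1.59e-05 for miR-142-5p, 1.74e-05 for hsa-miR-223-3p and 2.12e-05 for rno-miR-223-3p. Of all assays tested, 58 or 35.6% were called higher and 56 lower, with a median log2 difference of 0.09, so a call upward was common after CDTX while the size of the members' differences was not. By size they were the 1st, 3rd, 4th and 5th highest of the 163. The 1st, miR-142-3p, met the limit of a mean Cp of at most 32 only through its CDTX pools. Its rank and adjusted p are therefore a description. With a Cp of at most 32 required in all 8 pools, the other 3 assays were still called. The exact permutation test of the pool labels gave p = 0.0286 (two-sided) for each of the 4 assays, the smallest that 4 against 4 pools allow. It was run for the members only, so the share of all assays that reach this p is not known. In the limma fit 114 of the 163 were called higher or lower. Both tests take the 4 pools of an injection as replicates and count any difference between surgeries or days that the model leaves as error. The 95% confidence intervals of the 4 differences lay between 3.03 and 4.47 and overlapped, so no order among the members was drawn from them.

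The rise was present in each of the 4 pairs of pools that share surgery and day. For hsa-miR-223-3p the log2 ratio of CDTX to PBS was 4.04 in SHAM D2, 3.89 in SCI D2, 3.27 in SHAM D4 and 3.07 in SCI D4. The rat-named assay gave 4.19, 4.15, 2.95 and 3.46. Both assays thus had their larger ratios at D2 and their smaller ones at D4. For miR-142-5p the log2 ratios were 3.56, 3.75, 3.69 and 3.58, nearly the same in the 4 pairs. miR-142-3p could be counted only in SHAM D2, where its log2 ratio was 3.89, or 14.8-fold.

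Single pairs have no error, and a member was counted where its ratio reached 2-fold, without a test. In this way, 4 of 4 assays were higher in SHAM D2 and 3 of 3 in each of the other pairs. Over all assays at or below a Cp of 32 in the 2 pools of a pair, the share that was at least 2-fold higher was 23.4% of 141 in SHAM D2, 18.2% of 143 in SCI D2, 30.1% of 136 in SHAM D4 and 22.5% of 142 in SCI D4. The members stood at the upper end of these distributions. rno-miR-223-3p had the highest ratio of all assays in SHAM D2 and in SCI D2, and miR-142-5p the highest in SCI D4. The lowest rank of any member was the 7th of 136, for rno-miR-223-3p in SHAM D4. These 4 pairs share no pool with each other.

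**Figure D2:**
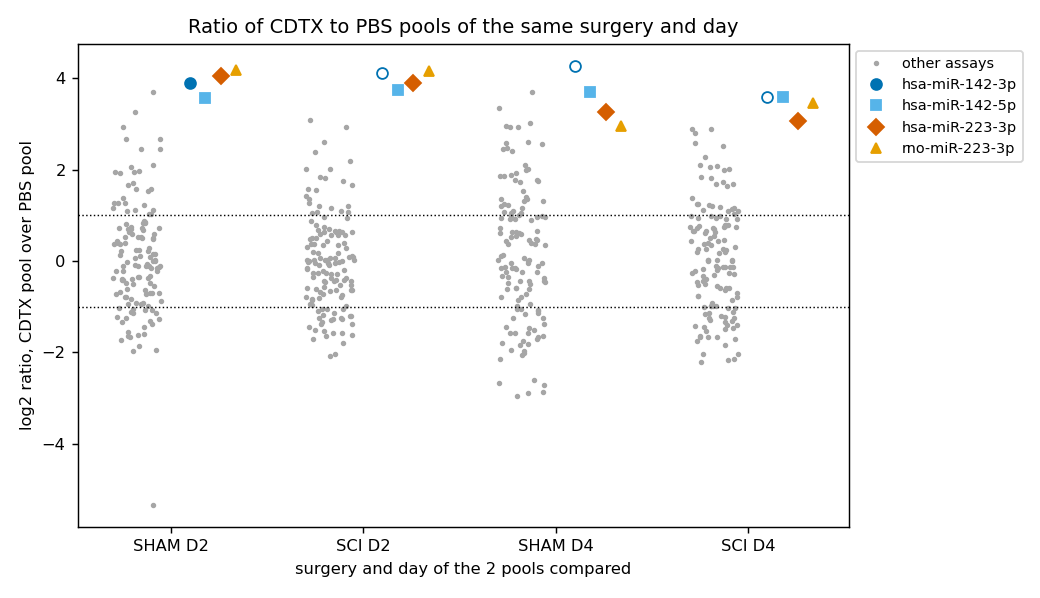
Log2 ratio of the CDTX pool to the PBS pool of the same surgery and day; grey points are all other assays at or below a Cp of 32 in the pair, coloured points the members, open where the PBS pool had a Cp over 32, and dotted lines mark 2-fold. Every filled member point lies between 2.95 and 4.19, near the top of the distribution. The lowest rank is the 7th of 136, for rno-miR-223-3p in SHAM D4.

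The label of the members as leukocyte miRNAs was set beside other miRNAs with known cell types. The panel measures no protein or messenger RNA, so the cells themselves could not be identified, and in bulk RNA a change in the number of cells of a type and a change in RNA per cell cannot be told apart. A list of 7 other leukocyte miRNAs had 8 assays, of which 6 were tested. Of these 3 were called higher and 2 lower, with a median log2 difference of 0.32 beside 0.09 over all assays. Those that rose were miR-146a-5p by 1.05 ± 0.22 (adjusted p = 0.00416, limma), miR-146b-5p (rno) by 1.91 ± 0.23 (adjusted p = 0.000301) and miR-342-3p by 1.37 ± 0.19 (adjusted p = 0.000598). The human-named assay of miR-146b-5p missed the limit on mean Cp and was not tested. Its log2 level was −7.81 to −6.82 in PBS pools and −6.68 to −5.99 in CDTX pools. In SHAM D4 it was nearly the same, at −6.68 with CDTX and −6.82 with PBS. miR-146a and miR-146b are induced by NF-κB in myeloid and other cells and dampen signalling from Toll-like receptors. miR-150-5p, which is high in mature lymphocytes, fell by 0.83 (adjusted p = 0.0405, limma). That mean joins unlike days. Its log2 level was −2.21 in both CDTX pools at D2, inside the −2.22 to −1.98 of the PBS pools. At D4 it was −3.68 and −3.57. miR-181a-5p, known from thymocytes but also made in muscle, fell by 0.86 (adjusted p = 0.0091, limma). miR-155-5p, which activated leukocytes induce, had a Cp of 34.11 or later in all 8 pools and was not tested. The leukocyte list did not move as 1 group, then, and none of its tested assays rose as far as the members did.

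No tested marker of the erythroid, muscle, endothelial or smooth muscle lists was called higher over both days. Of the erythroid miRNAs, miR-144-3p had a Cp between 29.82 and 32.22 and a log2 difference of −0.02 ± 0.28 (adjusted p = 0.963, limma), and miR-451a, the most abundant miRNA of red cells, had a Cp of 33.12 or later in every pool. The summed level of the erythroid list (relative to the references) ran from 0.0112 to 0.0313 in PBS pools and from 0.0114 to 0.0256 in CDTX pools. Of the 5 striated muscle assays tested, 4 fell, among them miR-133a-3p by 2.07 (adjusted p = 0.000152), and miR-206, a miRNA of regenerating fibres, did not pass the test at −0.06 ± 0.51 (adjusted p = 0.915). That mean joins opposite sides, since the log2 level of miR-206 was −0.44 and −0.96 in the CDTX pools at D2 and 2.02 and 1.85 at D4, below and above the 0.49 to 0.91 of the PBS pools. The summed level of the striated muscle list was 66.4 to 102 in PBS pools and 16.0 to 24.4 in CDTX pools. In the hsa-miR-1-3p assay the CDTX + SHAM D2 pool stood apart, with a Cp of 26.28 against 22.90 to 23.64 in the other CDTX pools. Endothelial miR-126-3p was lower by 0.77 ± 0.25 (adjusted p = 0.028, limma). Its log2 level was 0.24 and 0.54 in the CDTX pools at D2, and −0.94 and −0.83 at D4. The PBS pools ran from 0.31 to 0.65, so the clear fall was at D4. All 3 assays of miR-143-3p and miR-145-5p, miRNAs of smooth muscle and fibroblasts, were called lower. None of the neuronal, epithelial or liver assays reached a Cp of 32 in any pool, and they were not tested. Below that threshold, the summed level of the epithelial list was 0.0033 to 0.00499 in PBS pools and 0.00707 to 0.0113 in CDTX pools. These ranges did not overlap, but many values in the sums came from a Cp of 36, the end of the recorded range. At 36 a level follows the references alone. miR-200a-3p stood there in every pool. Its log2 level was still −11.32 to −10.65 in PBS pools and −10.78 to −10.39 in CDTX pools. No change of the epithelial miRNAs was therefore read from these sums. How far this loss of muscle RNA from the total moved the members' levels was not tested.

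**Figure D3:**
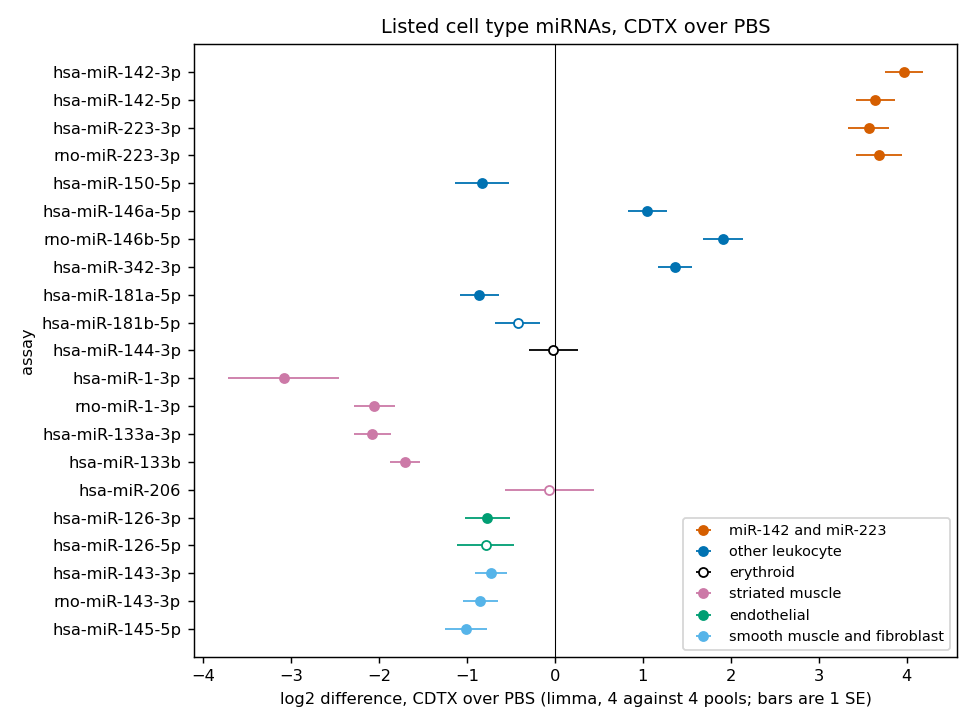
Log2 difference of CDTX over PBS for the members and for the tested assays of the cell type lists, with 1 SE from limma over 4 against 4 pools; filled points have an adjusted p under 0.05. The members lie between 3.57 and 3.97, the 3 rising leukocyte assays between 1.05 and 1.91, and the muscle, endothelial and smooth muscle assays at or below 0.

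The next comparison asked whether SCI changed the members in damaged muscle. At D2 the log2 ratio of CDTX + SCI to CDTX + SHAM was below 0 for all 4 assays, at −0.40 for hsa-miR-223-3p, −0.33 for rno-miR-223-3p, −0.68 for miR-142-3p and −0.78 for miR-142-5p. At D4 they were 0.18, 0.56, −0.41 and −0.01, so that miR-223-3p stood higher with SCI and miR-142 did not. For miR-142-5p this depended on the reference, since its ratio at D4 was 0.30 with the global mean. No member reached 2-fold on either day, and over all assays 1.37% of 146 did so at D2 and 10.7% of 168 at D4, where the median log2 ratio over all assays was −0.31. rno-miR-223-3p had the highest SCI to SHAM ratio of the 168 assays at D4.

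Over both days, none of these differences passed the test. In the limma fit the log2 difference of SCI over SHAM in CDTX pools was −0.54 ± 0.32 for miR-142-3p (adjusted p = 0.659), −0.39 ± 0.34 for miR-142-5p (adjusted p = 0.689), −0.11 ± 0.28 for hsa-miR-223-3p and 0.12 ± 0.29 for rno-miR-223-3p (adjusted p = 0.935 for both). The 95% intervals ran from −1.30 to 0.80 over the 4 assays, so a change of 2-fold was not excluded for either arm of miR-142. For hsa-miR-223-3p the interval of the mean over both days ended at −0.77 and 0.55, inside 2-fold. It holds no spread between mice and joins ratios of opposite sign at D2 and D4. It therefore excludes no change on a single day or between animals. Across all 163 assays 0.0% were called, with 13 at an unadjusted p under 0.05. The sign for hsa-miR-223-3p turned with the global mean as reference, where the difference was 0.06, and for both assays of miR-223-3p it turned with single pools left out.

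In PBS muscle SCI made no difference that could be called. At D2 miR-142-5p was lower in PBS + SCI than in PBS + SHAM by a log2 ratio of −0.97, the second lowest of 165 assays and just short of 2-fold, and the 2 assays of miR-223-3p had ratios of −0.25 and −0.29. At D4 the 3 ratios were 0.10, 0.38 and 0.05. None of the 3 assays counted reached 2-fold, although miR-142-5p did at D2 with miR-23b-3p alone as reference (−1.12), beside 1.82% of 165 assays at D2 and 0.676% of 148 at D4. In the limma fit 0.0% of 163 assays were called (1 at an unadjusted p under 0.05), and the intervals of the 4 members ran from −1.23 to 0.72. Whether the response to CDTX itself differed between SCI and SHAM mice was tested as an interaction, in which 0.0% of assays were called (1 at an unadjusted p under 0.05). For the members the interval of that interaction was wide, from −1.30 to 1.21 over the 4 assays.

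The last comparison asked how the members moved from D2 to D4. From D2 to D4 in CDTX + SHAM muscle, miR-223-3p had log2 ratios of −1.16 (hsa) and −1.27 (rno), both more than 2-fold lower. With miR-125b-5p alone as reference they were −0.81 and −0.92, so that neither reached 2-fold. miR-142-3p and miR-142-5p had log2 ratios of −0.22 and −0.52 between the same pools. Over all assays of this pair 23.4% of 145 differed at least 2-fold, but only 6 assays, or 4.14%, were lower, and 28 were higher. The 2 assays of miR-223-3p were thus the 3rd and 5th lowest of 145 while the median log2 ratio was 0.21.

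In CDTX + SCI muscle the same step was smaller. The log2 ratio of D4 to D2 was −0.58 (hsa) and −0.38 (rno) for miR-223-3p, and 0.05 and 0.25 for miR-142-3p and miR-142-5p. None reached 2-fold, beside 15.3% of 144 assays. Whether the fall differed between SHAM and SCI muscle was not tested, since each of these steps rests on 2 pools.

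Over both surgeries, the fall of miR-223-3p missed the threshold after adjustment. The limma difference of D4 over D2 in CDTX pools was −0.87 ± 0.28 for hsa-miR-223-3p (adjusted p = 0.0835) and −0.82 ± 0.29 for rno-miR-223-3p (adjusted p = 0.0979). For miR-142 it was −0.08 ± 0.32 (miR-142-3p, adjusted p = 0.865) and −0.13 ± 0.34 (miR-142-5p, adjusted p = 0.791). Over all 163 assays 29 or 17.8% were called, 19 higher and 10 lower, around a median of 0.14. Both assays of miR-223-3p passed the threshold with a filter of Cp at most 32 in all 8 pools (adjusted p = 0.032 and 0.0451, limma). They also passed with a mean-variance trend and a robust variance estimate together in the limma fit (0.00393 and 0.0449). Over all assays, 32 of 123 were called with that filter and 46 of 163 with the trend and robust estimate. Without any 1 PBS pool the adjusted p was 0.30 and 0.34. Without either CDTX + SCI pool the estimate was that of the SHAM pair alone, −1.16 and −1.27, and without either CDTX + SHAM pool that of the SCI pair alone, −0.58 and −0.38. Each of these leaves 1 pool against 1 and no spread within the CDTX pools, so no test was read from them. The sign for miR-142-3p and miR-142-5p turned with miR-125b-5p alone as reference, at 0.20 and 0.15.

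**Figure D4:**
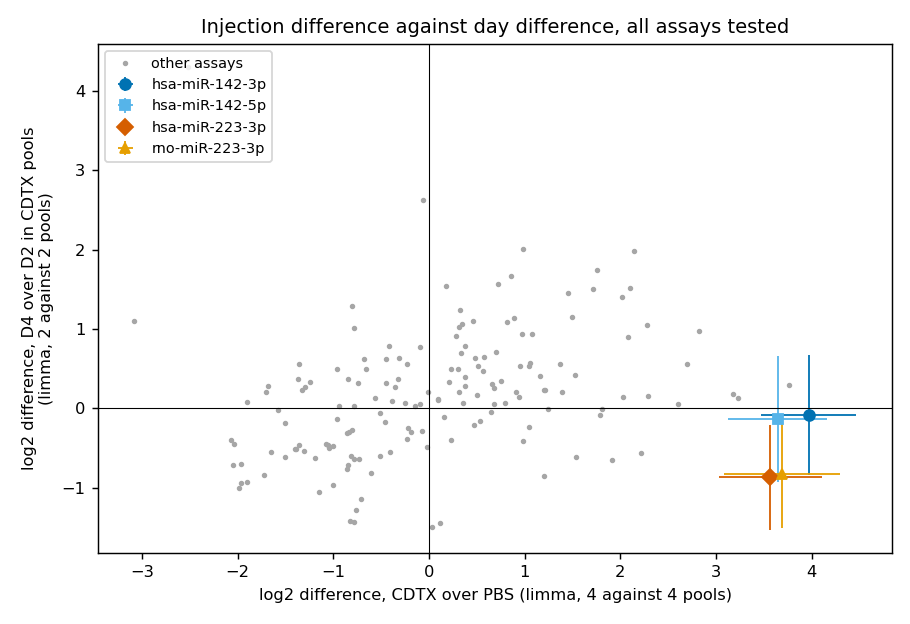
Log2 difference of CDTX over PBS on the horizontal axis against that of D4 over D2 in CDTX pools on the vertical axis for the 163 assays tested; grey points are other assays, and coloured points are the members with 95% confidence intervals from limma. All 4 members lie far to the right, and the 2 assays of miR-223-3p lie at −0.87 and −0.82, below those of miR-142 at −0.13 and −0.08.

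In PBS muscle no change from D2 to D4 was called. There the log2 ratio of D4 to D2 was −0.39 (hsa) and −0.03 (rno) for miR-223-3p in SHAM mice, and 0.24 and 0.31 in SCI mice. miR-142-5p had ratios of −0.65 in SHAM and 0.42 in SCI mice, opposite in sign. None reached 2-fold, beside 2.61% of 153 assays in SHAM and 1.27% of 157 in SCI mice, and in the limma fit of D4 over D2 in PBS pools 0.0% of 163 assays were called (4 at an unadjusted p under 0.05). The difference between the responses to CDTX at D4 and at D2 was −0.80 ± 0.40 for hsa-miR-223-3p (adjusted p = 0.267) and −0.97 ± 0.41 for rno-miR-223-3p (adjusted p = 0.266). Of all assays 0.613% were called in that interaction, 1 of 163, with 30 at an unadjusted p under 0.05. The SCI and day comparisons reuse the pools of the CDTX comparison and of each other, so they are not independent of it.

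Differences between members within a pool need no reference miRNA. The Cp of miR-142-5p minus that of hsa-miR-223-3p was 0.28 and 0.66 cycles in the CDTX pools at D2 (SHAM, SCI), and −0.36 and −0.17 at D4. After CDTX the difference was thus lower at D4 than at D2 in both surgeries. In PBS muscle the same difference was −0.20 and 0.52 at D2, and 0.06 and 0.34 at D4, with no such order by day. For miR-142-5p minus rno-miR-223-3p the CDTX pools gave −1.43 and −0.98 at D2, and −2.18 and −1.61 at D4. The PBS pools gave −2.06 and −1.38 at D2, and −1.44 and −1.49 at D4. Whether such a difference lies above or below 0 depends on the pair of assays, since each has its own efficiency. With 2 pools a day these are descriptions.

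The distance between the 2 arms of miR-142 was somewhat smaller in the CDTX pools. The Cp of miR-142-3p minus that of miR-142-5p was 3.66, 3.60, 3.61 and 3.44 cycles in the PBS pools and 3.33, 3.23, 3.03 and 3.43 in the CDTX pools. The groups did not overlap, but PBS + SCI D4 and CDTX + SCI D4 were nearly equal, and 3 of the PBS values rest on a miR-142-3p Cp above 32. Over the 12 pool comparisons the root mean square of the difference between the arms' log2 ratios was 0.28 and the largest such difference 0.58.

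The 2 assays of miR-223-3p give a measure of the error of an assay. Their Cp differed by 1.44 to 1.90 cycles within a pool, and the difference of their log2 ratios over the 12 comparisons had a root mean square of 0.26 and a maximum of 0.39. Even the lowest of their CDTX to PBS ratios, 2.95, was far above this. The ratios of SCI to SHAM for miR-223-3p were 0.05 to 0.56 in size, from below the root mean square to above the maximum of 0.39. The error of an assay covers neither the pool nor the mouse.

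**Figure D5:**
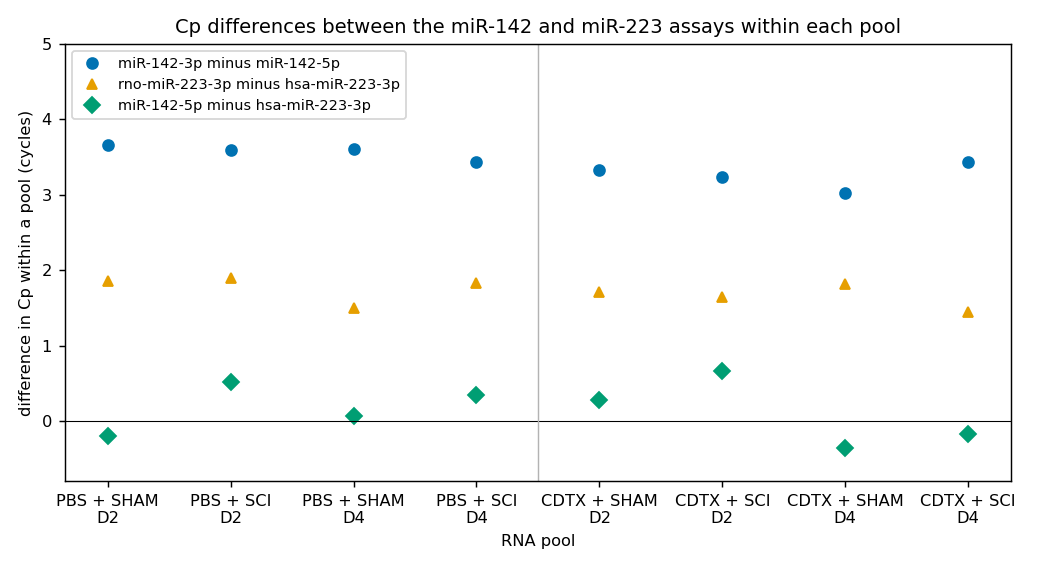
Difference in Cp, in cycles, between pairs of the assays within each of the 8 pools: miR-142-3p minus miR-142-5p, rno-miR-223-3p minus hsa-miR-223-3p, and miR-142-5p minus hsa-miR-223-3p; each point is 1 pool. The first pair stays between 3.03 and 3.66 and the second between 1.44 and 1.90. The third is 0.28 and 0.66 in the CDTX pools at D2, and −0.36 and −0.17 at D4.

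The assays whose log2 level over the 8 pools was most like that of each member were then listed, by Pearson's r among the other 162 assays tested. The 8 pools fall into the 2 injection groups and all levels share the references, so these values are descriptions and carry no p. For hsa-miR-223-3p the 5 most alike were miR-19b-3p (r = 0.997), rno-miR-223-3p (0.997), miR-20a-5p (0.985), miR-16-5p (0.985) and miR-142-5p (0.983). The rat-named assay had the same 5 companions, with hsa-miR-223-3p in place of itself. For miR-142-3p they were miR-142-5p (0.998), miR-18a-5p (0.991), miR-20a-5p (0.988), miR-19a-3p (0.986) and miR-21-5p (0.982). miR-142-5p had miR-142-3p (0.998), miR-20a-5p (0.987), miR-18a-5p (0.987), miR-19a-3p (0.985) and miR-19b-3p (0.984) nearest to it. The members' nearest assays were thus partly each other.

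A like profile did not mean a like size. Of these assays only miR-18a-5p rose as far as the members, by 3.76 ± 0.26 on the log2 scale (adjusted p = 2.12e-05, limma), with a Cp over 32 in 3 of the 4 PBS pools as for miR-142-3p. Like miR-142-3p, it met the limit of a mean Cp of at most 32 only through its CDTX pools. Its adjusted p is therefore a description. miR-21-5p, an abundant miRNA of many activated cells, rose by 2.70 ± 0.17 (adjusted p = 1.59e-05). miR-19a-3p rose by 1.81 ± 0.17 (adjusted p = 9.15e-05), miR-20a-5p by 1.79 ± 0.17 (adjusted p = 0.000117), miR-19b-3p by 1.04 ± 0.16 (adjusted p = 0.000739) and miR-16-5p by 0.53 ± 0.15 (adjusted p = 0.0122).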

How the data were processed

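RNA of gastrocnemius muscle was profiled by the authors with LNA-primed RT-qPCR on a mouse and rat miRNome panel. They took the quantification cycle as the second derivative maximum from the LightCycler software and deposited it as Cp, a log2 scale without normalization, for 755 assays, of which 3 are no miRNA. A second deposited table holds the ratio of each assay to reference miRNAs within a pool. Tested on the values, its reference is the average Cp of miR-125b-5p, miR-24-3p, miR-23a-3p and miR-16-5p, 4 miRNAs, to within 0.0 cycles, whereas the methods name 3, so levels were recomputed from Cp with those 3 and the deposited ratios served as an alternative. The deposited fold changes of each pool over a single pool were not used. The authors' genome build is not given in the sources used here, and the coordinates printed are those of RefSeq on GRCm38.p6.

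Pools were grouped by the labels, which give no replicate numbers. limma 3.58.1 in R 4.3.3 fitted log2 levels of the 163 assays with a mean Cp of at most 32 on injection, surgery and day (CDTX over PBS), and on injection with its interactions with surgery and with day (the other 6 contrasts, 2 residual degrees of freedom before moderation), with Benjamini-Hochberg adjustment over all 163 and a threshold of 0.05. The fits were tested on simulated data. scipy 1.17.1 gave the exact permutation tests. Pairs of pools were compared by a ratio of at least 2-fold where both Cp values were at most 32, without a test. The precision is limited by 1 pool per condition. The genes named are the members, the 5 assays most like each, and list assays. The members and lists were chosen with earlier results of these data known. Of the leukocyte list, 2 miRNAs found no assay by name and were not analysed here. Panel sequences came from a supplement of the study.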

Additional observations from a re-analysis of the deposited data

How the results depend on the processing

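For CDTX over PBS the 4 members had 77 refits, with 5 other references, 4 other filters on Cp, 1 assay per miRNA or a mean-variance trend. Further refits took the surgery-and-day pairs as a block or left each pool out. All 77 kept direction and call, at 3.25 to 4.22 on the log2 scale. Of these, 18 were of miR-142-3p, which met the main limit on mean Cp only through its CDTX pools. Its calls are therefore descriptions. Only 2 of the 4 filters kept miR-142-3p in the fit, and the stricter ones removed it. None of the 36 counts of members past 1.5-, 2- or 3-fold changed by over 1.5 times. Other references moved every assay by −0.32 to 0.25 in this contrast. Without a filter, apart from assays at 36 in every pool, 205 assays were called instead of 114. For D4 over D2 in CDTX pools 29 assays were called, but 12 with miR-24-3p alone as reference, 11 with miR-125b-5p alone, 18 with the deposited values, 8 at a mean Cp of at most 30, 46 with the trend and 13 to 46 with a pool left out. Of the members 0 were called there, and 0 with a PBS pool left out, but 2 where every pool had to reach a Cp of 32 and 2 with the trend. Over all assays, 32 of 123 were called where every pool had to reach a Cp of 32. The reversed values of this contrast were 0.20 (miR-125b-5p alone) and 0.0025 (deposited values) for miR-142-3p and 0.15 (miR-125b-5p alone) for miR-142-5p, with ranges of −0.22 to 0.053 and −0.52 to 0.25 over left-out pools. For SCI over SHAM in CDTX pools hsa-miR-223-3p was 0.060 with the global mean and −0.40 to 0.18 with a pool left out, and rno-miR-223-3p −0.33 to 0.56; the count of calls was 0, and 2 to 8 with a pool left out. For the interaction with surgery it was 0, and 1 to 2 with a pool left out. For the interaction with day 1 assay was called, but 0 with the global mean or with any reference alone, 8 where every pool had to reach a Cp of 32, 3 at a Cp below 36 in all pools or without a filter, 15 with the trend and 1 to 33 with a pool left out, with 0 to 1 members. The causes were not tested. Without a CDTX pool, the contrasts within CDTX pools set 1 pool against 1, and their calls rest on the spread of the PBS pools. Apart from the block by surgery and day, no paired analysis was possible because the labels carry no replicate numbers. A Cp near 32 or later, as for miR-142-3p in PBS muscle, comes from few template copies and is the least precise.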

Other observations

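The deposited ratios use miR-16-5p as 1 of their 4 references, and miR-16-5p was itself higher after CDTX by 0.53 ± 0.15 on the log2 scale relative to the 3 references of the methods (adjusted p = 0.0122, limma, 4 against 4 pools). miR-23a-3p, another of the 4, had a difference of 0.16 ± 0.15 (adjusted p = 0.367). miR-16-5p was also among the 5 assays whose profile was most like that of either miR-223-3p assay, with r = 0.985 and 0.988 over the 8 pools.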
